A study of Homo sapiens with 2 samples.

Results

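The genes described here encode the upper tier of the ATR and CHK1 replication checkpoint: the kinase ATR and its partner ATRIP, the activators TOPBP1 and ETAA1, the clamp subunits RAD9A, RAD1 and HUS1, the clamp loader RAD17, and the effector kinase CHEK1. They were picked by symbol, and all 9 were found, each in 1 row, among the 18141 distinct symbols of the table. The RNA was that of U2OS, an osteosarcoma line established from a human tumour, kept in 0.3 µM aphidicolin for 18 h while cycling asynchronously. Aphidicolin blocks the replicative DNA polymerases. The 2 libraries are replicates of this 1 treated group, and separate cultures are not stated in the labels, so their spread could be technical only. Untreated cells were not analysed here, and every value is therefore a level in treated cells and not a response.

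When a polymerase stalls while the helicase runs on, single-stranded DNA builds up and is coated by RPA. ATRIP binds that RPA and brings ATR with it, while RAD17, together with the small RFC subunits, loads the ring of RAD9A, RAD1 and HUS1 at the junction with double-stranded DNA. The ring brings in TOPBP1, which switches ATR on, and ETAA1 is a second activator that binds RPA itself. Active ATR phosphorylates CHEK1, which restrains origin firing and entry into mitosis. ATR acts through protein phosphorylation, which RNA levels do not measure.

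Levels are RPKM, reads divided by the exonic length of the gene and by the library total, and are given as mean ± SD (n = 2) or for each replicate in turn. The reads behind them were recovered from the deposited values, and the library totals came to 13227805 reads in replicate 1 and 13020149 in replicate 2. The mesenchymal markers VIM, SPARC and COL1A1 stood at 249, 280 and 209 RPKM, RUNX2 at 8.55 and ALPL at 2.23, while COL1A2 (0.0515) and BGLAP (0.277) were below 1 RPKM and SP7 was not listed. Of 17 markers of other cell types 14 were listed and 6 reached 1 RPKM in both libraries, with the epithelial markers summing to 77.1 and 73.9 RPKM, against 745 and 753 RPKM for the mesenchymal list. KRT18 and KRT8 made up most of the epithelial sum, at 42.6 and 29.8 RPKM. Their part in the levels below was not tested.

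The bases before the start site are shown for the gene with the highest level (TOPBP1), the gene with the lowest (ATR), and the clamp genes RAD1, which shares its upstream region with another gene, and RAD9A. Each line holds the 250 bases upstream of the RefSeq start on GRCh38.p14, 5′ to 3′ on the strand of the gene. Capitals mark matches on either strand to the letters of E2F factors (TTCCCGC, or its variant TTGGCGC, or the variant TTCGCGC, or the variant TTGCCGC), to the CCAAT box, or to the letters CCGGAAG of ETS factors.
TOPBP1 (chr3:133661942-133662191, minus strand): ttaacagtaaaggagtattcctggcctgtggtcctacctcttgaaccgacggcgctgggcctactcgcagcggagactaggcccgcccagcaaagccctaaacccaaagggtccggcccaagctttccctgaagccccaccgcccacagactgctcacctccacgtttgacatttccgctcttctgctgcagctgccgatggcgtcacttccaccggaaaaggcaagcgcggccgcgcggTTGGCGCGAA
ATR (chr3:142578734-142578983, minus strand): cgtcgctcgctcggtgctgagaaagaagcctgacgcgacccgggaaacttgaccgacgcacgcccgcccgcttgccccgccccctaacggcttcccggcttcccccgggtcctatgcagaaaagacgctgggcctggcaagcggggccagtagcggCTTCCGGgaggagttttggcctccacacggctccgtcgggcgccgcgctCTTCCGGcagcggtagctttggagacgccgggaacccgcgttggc
RAD1 (chr5:34915505-34915754, minus strand): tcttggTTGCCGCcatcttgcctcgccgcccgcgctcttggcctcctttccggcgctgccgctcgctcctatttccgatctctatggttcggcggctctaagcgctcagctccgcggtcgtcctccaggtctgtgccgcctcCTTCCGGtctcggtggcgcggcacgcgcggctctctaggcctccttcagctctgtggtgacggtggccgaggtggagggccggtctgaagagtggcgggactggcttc
RAD9A (chr11:67391736-67391985, plus strand): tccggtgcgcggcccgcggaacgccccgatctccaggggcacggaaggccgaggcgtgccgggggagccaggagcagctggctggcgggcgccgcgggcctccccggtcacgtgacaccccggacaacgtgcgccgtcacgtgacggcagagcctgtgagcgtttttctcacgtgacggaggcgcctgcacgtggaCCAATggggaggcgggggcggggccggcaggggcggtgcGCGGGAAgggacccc
Such a window was matched for 8 of the 9 genes, all but HUS1. The E2F letters occurred in TOPBP1, RAD1 and RAD9A, 3 of the 8, and in 18.2% of the 9469 windows of genes at 1 RPKM or more in both libraries (11.0% of all 27305 windows). In TOPBP1 2 overlapping matches began 10 and 7 bases before the start, in RAD9A 1 match began 15 bases before it, and in RAD1 the only match lay at the far end of the window, 244 bases away. That RAD1 match lies past the RefSeq start of BRIX1 on the other strand, 207 bases away, and so inside BRIX1. CCAAT occurred in ATRIP, ETAA1, RAD9A and CHEK1 (4 of 8, against 35.1% of the windows of genes at the level), and the ETS letters occurred in ATR, at 2 places, and in RAD1 (16.5% of those windows). The windows printed are thus those that hold every E2F and ETS match. RAD17, which is not printed, had no E2F, CCAAT or ETS match. The letters GCATGCGC of the factor NRF1, the letters TTTGAA of the cell cycle homology element and the TATA letters TATAAA were searched as well, on both strands, and matched in none of the 8 (5.0%, 8.1% and 5.0% of the windows of genes at the level). A match describes letters and not a bound factor. The windows ran from 57.2% GC in ETAA1 to 75.6% in RAD9A, with a median of 65.2% over genes at the level.

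All 9 genes reached 1 RPKM in both libraries, as did 66.7% of the 17912 entries of the table. They ranged from 2.59 RPKM for ATR to 32.5 RPKM for TOPBP1, a ratio of 12.5, with a median of 6.63 RPKM. The median was 3.53 RPKM over all entries and 8.04 RPKM over the 11944 entries at the level. Of the 9 genes 8 lay above the median of all entries and ATR, as deposited, lay below it, at percentile 44.8. That place depended on the length by which ATR's reads were divided. With the GENCODE exonic length for each of 16965 matched entries ATR was at 5.64 RPKM and percentile 57.1, above their median of 4.03 RPKM. Reads counted outside GENCODE exons can be part of that ATR value.

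**Figure D1:**
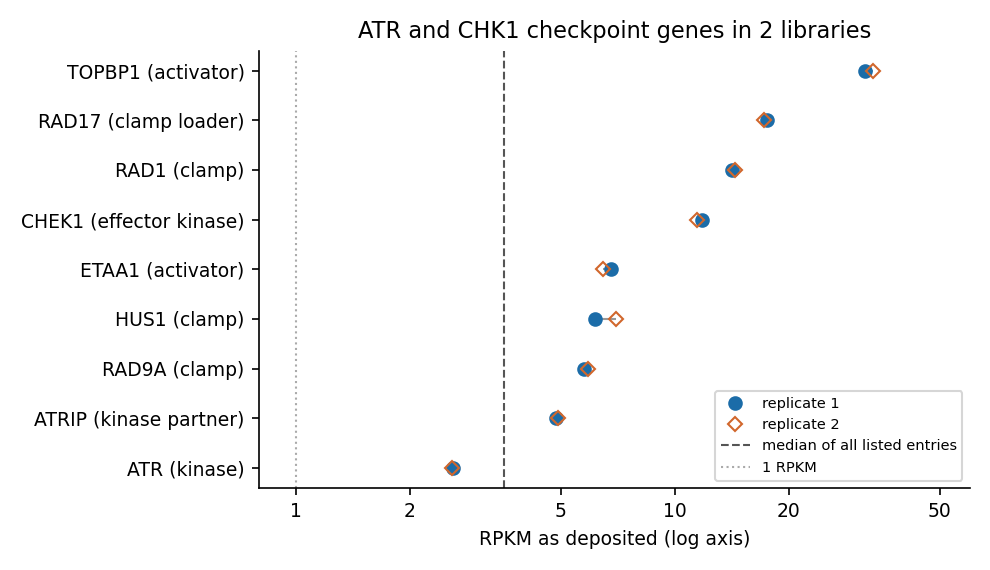
RPKM of each gene (log axis) in replicate 1 (filled circles) and replicate 2 (open diamonds), ordered by mean, with dashed and dotted lines at the median of all entries and at 1 RPKM. TOPBP1 stands apart at 31.7 and 33.3 RPKM, ATR is the only gene left of the dashed line as deposited (with GENCODE lengths it is above the median), and HUS1 and ETAA1 are the only neighbours whose ranges overlap.

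ATR, the kinase that starts the cascade, had the lowest deposited level of the 9, at 2.59 RPKM in each library. Its partner ATRIP, without which ATR is not brought to RPA-coated DNA, was at 4.86 RPKM in replicate 1 and 4.91 in replicate 2. ATR over ATRIP was thus 0.534 and 0.527, and the ranges of the genes did not overlap. This order depended on the length used to divide the reads. ATR had 934 and 917 reads, against 349 and 347 for ATRIP. The length behind the deposited ATR value was at least 27234 bases, which is 2.18 times the 12496 exonic bases of ATR in GENCODE release 29 and 3.30 times its principal transcript of 8249 bases. Per kb of GENCODE exon ATR stood at 5.64 ± 0.010 and ATRIP at 4.88 ± 0.035, and per kb of the principal transcripts ATR stood at 8.55 ± 0.015 and ATRIP at 5.79 ± 0.041. ATR over ATRIP then became 1.16 and 1.48, so the order of the means reversed on both of these scales. The 95% Poisson intervals, which cover counting error only, still overlapped on the GENCODE scale. In replicate 1 that of ATRIP ran from 4.36 to 5.40 RPKM on the deposited and GENCODE scales alike. That of ATR ran from 2.43 to 2.76 as deposited and overlapped it once scaled to the GENCODE length. The intervals in replicate 2 overlapped too. Per kb of the principal transcripts the intervals did not overlap. Overlap of such intervals is not a test of the ratio. Per kb of GENCODE exon ATR over ATRIP was 1.16 in replicate 1 and 1.15 in replicate 2.

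The smallest length that the reads allow was at least 2.18 times the GENCODE value for 178 of 16965 matched entries (1.05%), ATR among them. Genes whose reads share a whole factor can have longer models than this smallest length, so 1.05% is a lower bound. The 9 genes otherwise carried lengths close to those of GENCODE: ATRIP, RAD9A and RAD17 had exactly the same length, and TOPBP1, RAD1, ETAA1 and HUS1 came within 2%. CHEK1 is the other exception. Its reads are known only up to a whole factor, and the factor that brings its length nearest to GENCODE gives 7647 bases, 1.17 times the 6558 of GENCODE. Reads were counted over the longer ATR model. Its values per kb of GENCODE exon and of the principal transcript can therefore hold reads from outside those bases. Any such reads would raise both values and the ratios of ATR over ATRIP on these scales. Which parts of ATR its reads came from was not measured.

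**Figure D2:**
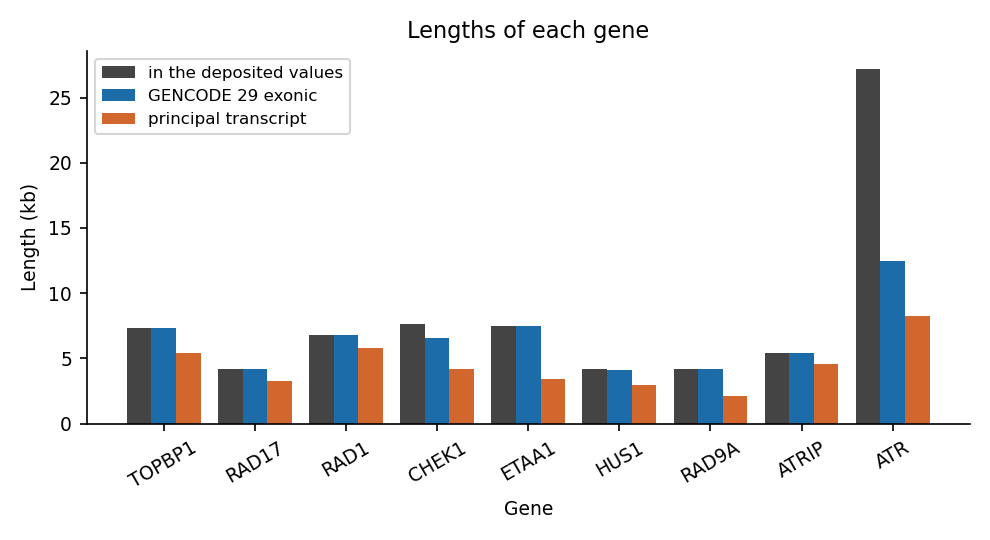
Length in kb of each gene as implied by the deposited values (dark), in GENCODE 29 exons (blue) and in the principal transcript (orange), with the CHEK1 length resting on the factor nearest to GENCODE. ATR differs most, at 27234, 12496 and 8249 bases.

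ATRIP carries a limit of its own. The readthrough locus ATRIP-TREX1 had a row with exactly the same values as ATRIP, so the 2 symbols hold 1 measurement. In GENCODE 1515 of the 5431 exonic bases of ATRIP (27.9%) are shared, on the same strand, with TREX1, a gene for a DNA exonuclease that was not analysed here. How reads in the shared bases were assigned is not given in the sources used here. For ATR, 2048 exonic bases (16.4% of the GENCODE length) overlap a processed pseudogene on the opposite strand.

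TOPBP1, the scaffold that activates ATR through the clamp, had the highest level, at 31.7 RPKM in replicate 1 and 33.3 in replicate 2 (3072 and 3178 reads), and stood at percentile 92.2 of all entries. ETAA1, the activator that binds RPA directly, had 6.78 and 6.47 RPKM. TOPBP1 over ETAA1 was 4.67 and 5.14, and no library of TOPBP1 came near one of ETAA1. Per kb of the principal transcripts the ratio was smaller, 2.91 and 3.21, because ETAA1 was divided by 7477 bases in the deposited values while its principal transcript has 3418. On that scale TOPBP1 stood at 44.3 ± 1.6 and ETAA1 at 14.5 ± 0.48. Reads counted outside the principal transcript can be part of both values.

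The 3 subunits of the clamp, which form a ring with 1 copy of each, did not have equal levels. RAD1 had 14.1 RPKM in replicate 1 and 14.4 in replicate 2. HUS1 had 6.17 and 6.99 RPKM, and RAD9A, which carries the tail that binds TOPBP1, had 5.77 and 5.90. RAD1 was 2.45 and 2.44 times RAD9A and 2.29 and 2.06 times HUS1, and its values did not overlap with those of the others. HUS1 and RAD9A lay close together. Their ranges did not overlap, but the 95% Poisson intervals in replicate 1, which cover counting error only, ran from 5.53 to 6.86 RPKM for HUS1 and from 5.15 to 6.44 for RAD9A and overlapped. Per kb of the principal transcripts the order of these 2 reversed, with RAD9A at 11.5 ± 0.18 and HUS1 at 9.34 ± 0.82, and RAD1 remained highest at 16.7 ± 0.20. The lengths behind the deposited values were 1.97 times the principal transcript for RAD9A and 1.42 times for HUS1. Reads from outside the principal transcripts can thus raise these values unequally.

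RAD17, the large subunit that directs loading of this clamp, had the second highest level, at 17.5 and 17.1 RPKM. RAD1 was at 0.808 and 0.839 of RAD17, HUS1 at 0.353 and 0.408, and RAD9A at 0.330 and 0.344. All 3 clamp genes were below RAD17 in both libraries, and this held on the GENCODE and principal transcript scales as well. Per kb of the principal transcripts RAD9A was at 0.504 and 0.526 of RAD17.

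CHEK1, the kinase that ATR phosphorylates, had 11.8 RPKM in replicate 1 and 11.4 in replicate 2. It was 4.54 and 4.42 times ATR as deposited. The ratio fell to 2.53 and 2.46 per kb of the principal transcripts, taking 1191 and 1137 reads for CHEK1. With the next lower factor its reads would be 794 and 758, and its values per kb of the principal transcript would be 14.5 and 14.0 in place of 21.7 and 21.0. CHEK1 would then fall below RAD1, and also below ETAA1 (14.8 and 14.2), on that scale, so its place between RAD17 and RAD1 there is uncertain. The deposited RPKM does not depend on the factor.

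By deposited RPKM the full order was TOPBP1, RAD17, RAD1, CHEK1, ETAA1, HUS1, RAD9A, ATRIP and ATR. Of the 8 neighbouring pairs in it, only ETAA1 and HUS1 overlapped between libraries (6.63 ± 0.22 and 6.58 ± 0.58). An exact permutation test of 2 values against 2 cannot give a 2-sided p below 0.333, so no test of the pairs was made. Per kb of the principal transcripts the order was TOPBP1, RAD17, CHEK1, RAD1, ETAA1, RAD9A, HUS1, ATR and ATRIP. CHEK1 holds that place only with the factor nearest to GENCODE. TOPBP1 led on both scales, and the ratio of the highest to the lowest gene went from 12.5 to 7.65. RAD17 was second on both, but per kb of the principal transcripts this too rests on the CHEK1 factor.

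**Figure D3:**
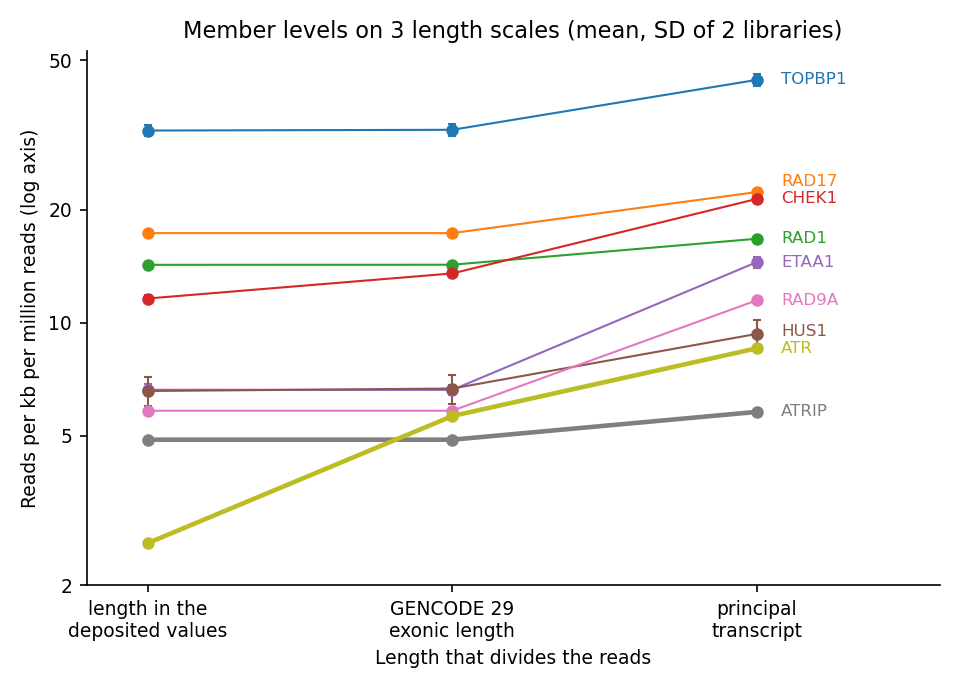
RPKM on each length scale (log axis, mean with SD of 2 libraries) for each gene when its reads are divided by the length behind the deposited values, by GENCODE 29 exonic length, or by the length of the principal transcript. ATR (thick line) rises from 2.59 to 5.64 and 8.55 and crosses ATRIP (thick line, 4.88, 4.88 and 5.79).

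The libraries gave nearly the same levels for these genes. The exact binomial test on reads with Benjamini-Hochberg adjustment called 0 of the 9 different at 0.05, where 1.71% of the 11934 tested genes were called. At an unadjusted p under 0.05 it found 1 of the 9, TOPBP1, and 12.0% of all tested genes. TOPBP1 was higher in replicate 2 by 0.08 ± 0.04 on the log2 scale (counting SE, exact binomial p = 0.0296, adjusted p = 0.339). HUS1 had the largest ratio, 0.19 ± 0.11 with 340 and 379 reads (exact binomial adjusted p = 0.514). The coefficient of variation between libraries had a median of 1.56% over the 9 genes and 3.30% over the 8494 entries in the same range of levels. It ran from 0.18% for ATR to 8.8% for HUS1. This comparison is between libraries of 1 group and not between conditions.

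**Figure D4:**
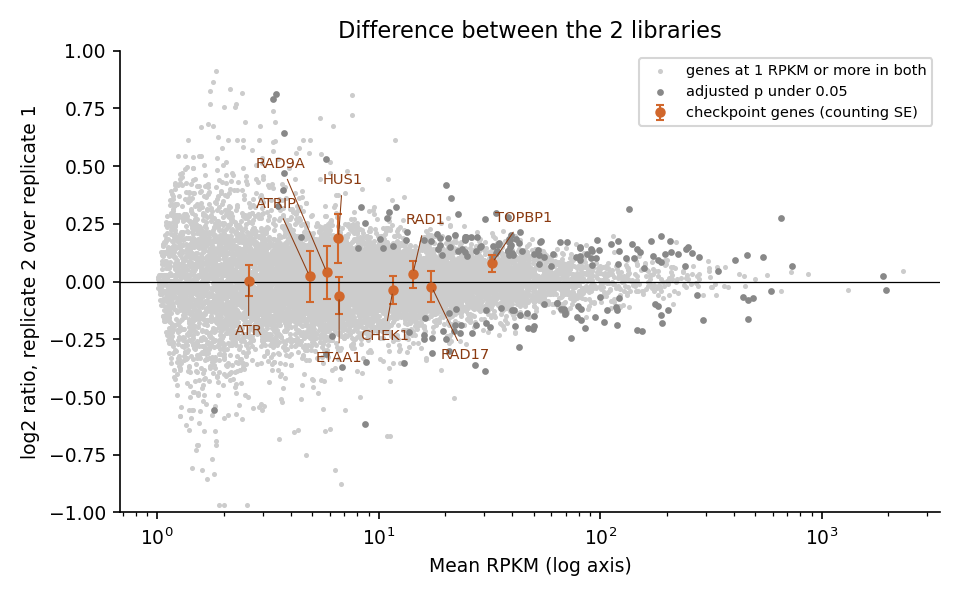
Log2 ratio of replicate 2 over replicate 1 against mean RPKM (log axis) for the genes at 1 RPKM or more in both libraries (light grey), those with an adjusted p under 0.05 (dark grey) and the 9 checkpoint genes with their counting SE (orange); 22 genes beyond 1 in either direction lie outside the plot. HUS1 sits highest of the 9 at 0.19 and none of the 9 is among the called genes.

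Several of these genes share their start region with a gene on the other strand. RAD1 and BRIX1, a gene for a ribosome assembly factor, start 207 bases apart on opposite strands in RefSeq. The window printed for RAD1 thus spans the bases between both RefSeq starts. The outermost GENCODE starts of these genes lie 3613 bases apart. BRIX1 was at 18.0 and 18.5 RPKM, above the 14.1 and 14.4 of RAD1, and 482 GENCODE exonic bases of RAD1 (7.12%) overlap it. In RefSeq RAD17 begins 298 bases from a start shared by AK6 and TAF9 and 6 bases from another. In GENCODE the outermost starts of AK6 and TAF9 lie 720 bases from that of RAD17. TAF9, a subunit of the general transcription factor TFIID, was at 39.5 ± 1.5 RPKM and AK6 at 12.0 ± 0.99, above and below RAD17. TOPBP1 has an opposite start 57 bases away in RefSeq, annotated to TF, and CHEK1 one at 335 bases, annotated to LOC118567325, and neither partner was analysed here. In total, 4 of the 8 genes with a window had an opposite start within 1 kb, against 31.6% of the genes at the level.

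Exons shared with neighbours were otherwise short. RAD9A shares 228 exonic bases (5.47%) with PPP1CA, the gene of a phosphatase catalytic subunit, which stood far above it at 80.3 ± 1.9 RPKM. RAD17 shares 380 bases with TAF9 and 210 with AK6, and CHEK1 shares 80 with STT3A, at 31.7 ± 1.1 RPKM. TOPBP1 shares 36 bases with the pseudogene TFP1, and ETAA1 and HUS1 share none with a GENCODE gene. Use of strand in the counting is not given in the sources used here, so reads in bases shared with an opposite gene cannot be told apart.

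The genes lie on chromosomes 2, 3, 5, 7 and 11 of GRCh38. The spans given are those of GENCODE, and the RefSeq start behind a window can lie inside them, as that of RAD9A does. ATR spans 130 kb on chromosome 3 (142449235 to 142578826, minus strand, 47 merged exons), and TOPBP1 (133598175 to 133662380, minus strand) and ATRIP (48446710 to 48467645, plus strand) are on the same chromosome. RAD1 (34905264 to 34918989, minus strand) and RAD17 (69369293 to 69414801, plus strand) are on chromosome 5. RAD9A (67317871 to 67398410) and CHEK1 (125625136 to 125676255) are on the plus strand of chromosome 11. HUS1 is on chromosome 7 (47963288 to 47979553, minus strand) and ETAA1 on chromosome 2 (67397319 to 67412089, plus strand).

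The partners, relatives and targets of these genes were taken from 10 lists with 42 genes, all listed, of which 38 reached 1 RPKM in both libraries. Their median was 16.5 RPKM. The genes of RPA, the platform that ATRIP binds, ran from 28.4 ± 0.92 RPKM for RPA3 to 41.8 ± 0.54 for RPA2, so each stood above ATRIP at 4.88 and ETAA1 at 6.63. The small RFC subunits that load the clamp with RAD17 ran from 25.7 ± 2.1 RPKM for RFC3 to 42.4 ± 1.8 for RFC2, all above the 17.3 of RAD17. The lowest RPA gene was RPA1 at 36.2 ± 1.7 and the highest small RFC subunit RFC4 at 59.8 ± 2.4 per kb of the principal transcripts. Among the large subunits that compete for the same small subunits, RFC1, which loads the replicative clamp, was at 37.2 ± 0.96, and CHTF18 at 9.79 ± 0.018 and ATAD5 at 11.3 ± 0.61 were below RAD17.

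Of 10 mediators 9 reached the level. RHNO1, whose protein binds both the clamp and TOPBP1, led them at 50.4 ± 1.2 RPKM. RAD50, a subunit of the break-resecting MRE11 complex, was the exception at 0.627 ± 0.013 RPKM with 89 and 85 reads. MRE11 and NBN of the same complex were at 7.70 ± 0.19 and 16.3 ± 0.68 RPKM. Exons that RAD50 shares with other genes were not searched, so a loss of its reads at counting was not tested. Of the family relatives of ATR all 5 reached the level, from ATM at 3.65 ± 0.21 RPKM to PRKDC at 52.8 ± 1.8. ATR was thus below each of the 5 as deposited. Per kb of the principal transcripts ATR at 8.55 was above ATM at 6.65 ± 0.38 and below the others, so its place beside ATM also depended on the length. The factors that assemble proteins of this family all reached the level, from TTI2 at 4.59 ± 0.18 to RUVBL2 at 35.0 ± 0.60.

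CHEK2, the effector that ATM phosphorylates, was at 4.96 ± 0.0045 RPKM, below CHEK1 at 11.6. The targets of CHEK1 all reached the level, from WEE1 at 8.97 ± 0.58 to CDC25B at 49.5 ± 2.4. The place of WEE1 depended on the length, since its reads were divided by 9251 bases and its principal transcript has 2799. WEE1 was at 29.7 ± 1.9 and CDC25C was the lowest target at 14.9 ± 1.1 per kb of the principal transcripts. Of 5 genes listed for turnover and dephosphorylation of CHEK1, 4 reached it, led by the deubiquitinase gene USP1 at 58.9 ± 0.96. FBXO6, an F-box gene whose product directs CHEK1 to degradation, was below it at 0.549 ± 0.025 RPKM with 13 and 12 reads. The paralogs of 2 clamp genes were barely detected. RAD9B had 5 and 8 reads (0.156 ± 0.053 RPKM) and HUS1B had 4 and 1 (0.185 ± 0.16 RPKM), against 5.83 for RAD9A and 6.58 for HUS1. The 4 genes below 1 RPKM were not tested. Of the 38 tested 2 differed between libraries, where 204 of all 11934 tested genes did (1.71%), MDC1 (log2 ratio 0.19, exact binomial adjusted p = 0.00449) and PRKDC (0.08, adjusted p = 0.00873), both higher in replicate 2.

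**Figure D5:**
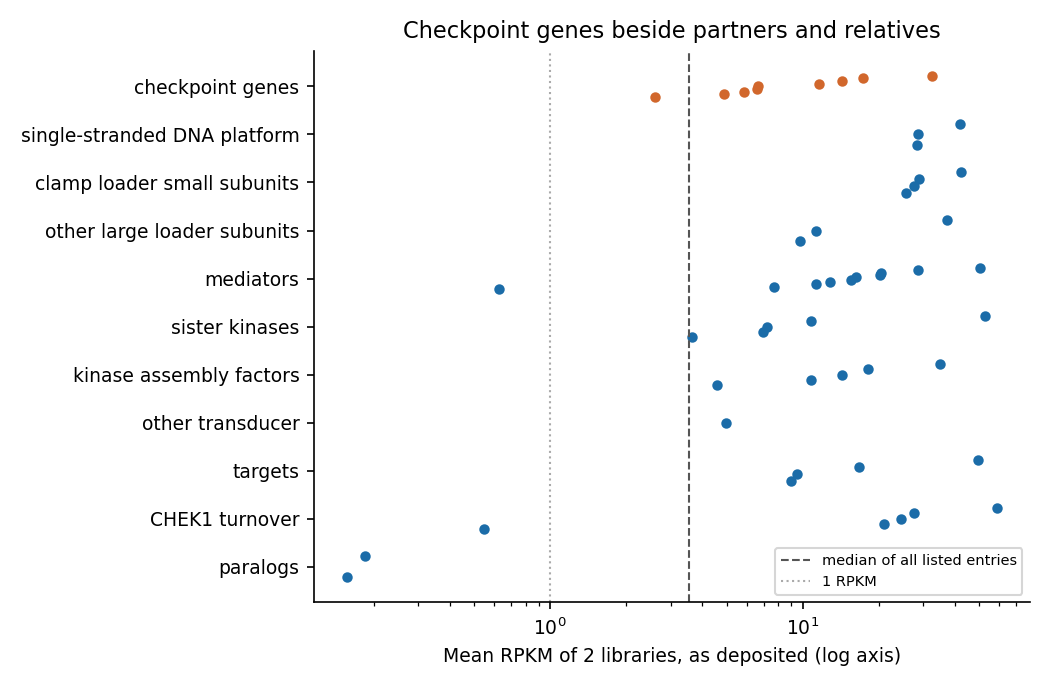
Mean RPKM of 2 libraries (log axis), 1 point per gene, for the 9 checkpoint genes (orange) and for the 10 lists of partners, relatives and targets (blue), with lines at the median of all entries and at 1 RPKM. The 4 points left of 1 RPKM are RAD50, FBXO6, RAD9B and HUS1B, and ATR and ATM lie nearest to the dashed line among the kinases.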

How the data were processed

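Poly(A) RNA was captured on oligo(dT) beads and reverse transcribed from random hexamers, per the labels' protocols. The deposited table holds RPKM in 1 column per library, per the file headers. Trim Galore, HISAT2, featureCounts and the builds hg38 and GRCh38.p13 are named, per the submitters' processing notes. Versions, annotation and use of strand, not given in the sources used here, stay unknown. A set of 58 symbols with several rows (194 rows) was left out, none of them a gene reported on here. Symbols with equal values counted once, which left 17912 entries.

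Reads were recovered from RPKM after the data were seen. A ratio of whole numbers between the columns was found for 100% of genes (relative tolerance 2e-13). The search was wide enough to find one for nearly any pair of values, so this share is no check of the recovery. A set of 1019 genes with equal reads gave the ratio of the totals. The totals and the factor of each gene were those that brought lengths to GENCODE release 29. Lengths equalled GENCODE for 43.8% of entries, partly by construction. The principal transcript is the APPRIS one. All reads of a gene were divided by its length, so for every gene values on that scale can hold reads from outside it. Recovery and test were run on simulated Poisson reads whose lengths equalled the annotation or lay close to it. That setting did not cover lengths as far off as those of ATR and CHEK1. The planned comparison of protein sequences was not made.

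Libraries were compared by a 2-sided exact binomial test after scaling by the trimmed mean of M values (0.9947) and Benjamini-Hochberg adjustment, over genes at 1 RPKM or more in both. Genes and lists were chosen with earlier results of these data known. Named genes were all 9 genes, the highest, lowest and sub-level genes of each list, and overlapping or divergent neighbours. ATAD5, MRE11 and NBN, and MDC1 and PRKDC as differing between libraries, were named after their values were seen. Alternatives covered the level, libraries, lengths, background, scaling and pseudocount. Python 3.11.15, numpy 2.4.6, scipy 1.17.1, pandas 2.3.3 and matplotlib 3.10.9 were used.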

Additional observations from a re-analysis of the deposited data

How the results depend on the processing

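The lengths of the principal transcripts, and GENCODE lengths for single levels and for the percentile of ATR, were chosen after the data were seen. Levels per kb of GENCODE exon moved to 5.64 for ATR and 13.5 for CHEK1. All values of CHEK1 other than the deposited RPKM rest on the factor nearest to GENCODE. Per kb of the principal transcripts they were 8.55 for ATR, 5.79 for ATRIP, 21.4 for CHEK1, 44.3 for TOPBP1, 14.5 for ETAA1, 11.5 for RAD9A, 16.7 for RAD1, 9.34 for HUS1 and 22.3 for RAD17. The log2 ratio of ATR over ATRIP (-0.92) became 0.21 with GENCODE lengths, and with principal transcripts the log2 ratios were 0.56 for ATR over ATRIP, 0.54 for RAD1 over RAD9A, 0.84 for RAD1 over HUS1, -0.30 for HUS1 over RAD9A, -0.96 for RAD9A over RAD17 and -0.41 for RAD1 over RAD17, so ATR over ATRIP and HUS1 over RAD9A reversed. These changes follow from the lengths by construction. Of the 8 neighbouring pairs 5 kept their order in CPM (reads not divided by length) and 5 per kb of the principal transcripts. Percentiles among protein-coding genes were 38.4 for ATR, 50.3 for ATRIP, 71.5 for CHEK1, 91.1 for TOPBP1, 57.5 for ETAA1, 54.5 for RAD9A, 76.6 for RAD1, 57.3 for HUS1 and 80.8 for RAD17. Among genes at the level they were 17.2 for ATR, 34.0 for ATRIP, 62.5 for CHEK1, 88.3 for TOPBP1, 43.7 for ETAA1, 39.6 for RAD9A, 69.2 for RAD1, 43.5 for HUS1 and 74.7 for RAD17. In CPM they were 77.7 for ATR, 56.7 for ATRIP, 82.7 for CHEK1, 95.8 for TOPBP1, 69.9 for ETAA1, 55.0 for RAD9A, 84.4 for RAD1, 57.3 for HUS1 and 78.1 for RAD17. That of ATR was 57.1 with GENCODE lengths and 56.5 with principal transcripts for all matched entries. CHEK2, alone in its list, gave 0 genes at 5 RPKM, and the other 65 of 66 list counts stayed within 1.5 times. All 10 mediators, RAD50 included, reached 0.5 RPKM, 1 CPM and 1 TPM. All 5 genes for CHEK1 turnover, FBXO6 included, reached 0.5 RPKM and 1 TPM but not 1 CPM. The 9 checkpoint genes numbered 9 at the level under every alternative but 5 RPKM (7). None of the 9 was called different with library totals, with no filter, at 0.01 or with the lower CHEK1 factor. No paired analysis was possible because the libraries form 1 group. Counting error limits HUS1, RAD9A and ATRIP, which had 318 to 379 reads a library.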
